A study of Mus musculus with 3 samples.

Results

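High-score spots were defined as the spots of each wound section that carried the largest share of RNA from 7 genes of fat cells, Adipoq, Plin1, Plin4, Cfd, Cidec, Retn and Car3. A spot is one capture area of a Visium slide, a glass surface that assigns every captured molecule to a position and counts it once by its unique molecular identifier (UMI), and it can hold several cells of different types. In each section the spots marked as tissue and holding at least 500 UMIs were ranked by the score, and the top 15% were taken. The score was the summed UMIs of the 7 genes divided by all UMIs of the spot. The paper speaks of under-tissue spots and shows spots selected for a region of interest. The mark therefore need not cover the whole section. The Day 3 section gave 78 high-score spots out of 520, Day 7 gave 81 out of 539 and Day 14 gave 103 out of 689, which makes 262 of 1748 in all. The minimum of 500 UMIs left out 144 of 664 marked spots on Day 3, but only 10 of 549 on Day 7 and 8 of 697 on Day 14. Since the score chose the spots, its genes are given below as a description, and every comparison leaves them out.

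The sections came from full-thickness excisional wounds in the back skin of C57BL/6J mice, for which the labels name no genetic change or drug, taken 3, 7 and 14 days after injury, with 1 section per day. The study used males of 7 to 12 weeks. No section from an unwounded mouse was analysed here. The paper's images label intact skin beside the wound within these sections, but the spots were not split by that label. Nothing can therefore be read against unwounded fat, and with 1 section per day no test between days was possible. Every difference between days is one between these 3 sections. The high-score spots held 205089, 440109 and 371834 UMIs on Days 3, 7 and 14, with medians of 2008, 4884 and 3349 UMIs a spot, against 1972, 7531 and 5613.5 in the other spots. Spots outside the marked area were left out by the rule, although those with at least 500 UMIs had a pooled score of 11550, 11418 and 4087 UMIs per 1000000 UMIs (CPM), against 27096, 6982 and 4257 CPM in the high-score spots.

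Fat cells of the skin lie under the dermis as dermal white adipose tissue, above a thin sheet of striated muscle in the mouse. They take up fatty acids released from circulating lipoproteins, build triglyceride from them and from sugar, coat the lipid droplet with perilipins, and release the fat again by lipolysis when insulin is low. They also secrete adiponectin, adipsin and resistin, and skin fat is known to shrink and refill with the hair cycle and after wounding.

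The high-score spots reached far higher scores on Day 3 than on Day 7 or Day 14. On Day 3 the 7 genes took from 0.777% to 8.29% of a high-score spot's UMIs, with a median of 1.35%. On Day 7 the range was 0.599% to 1.64% with a median of 0.668%, and on Day 14 it was 0.265% to 1.52% with a median of 0.382%. The lowest spots taken and the highest spots left out were close on each day, at 7769 against 7629 CPM on Day 3, at 5993 against 5971 CPM on Day 7, and at 2653 against 2621 CPM in the Day 14 section.

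**Figure D1:**
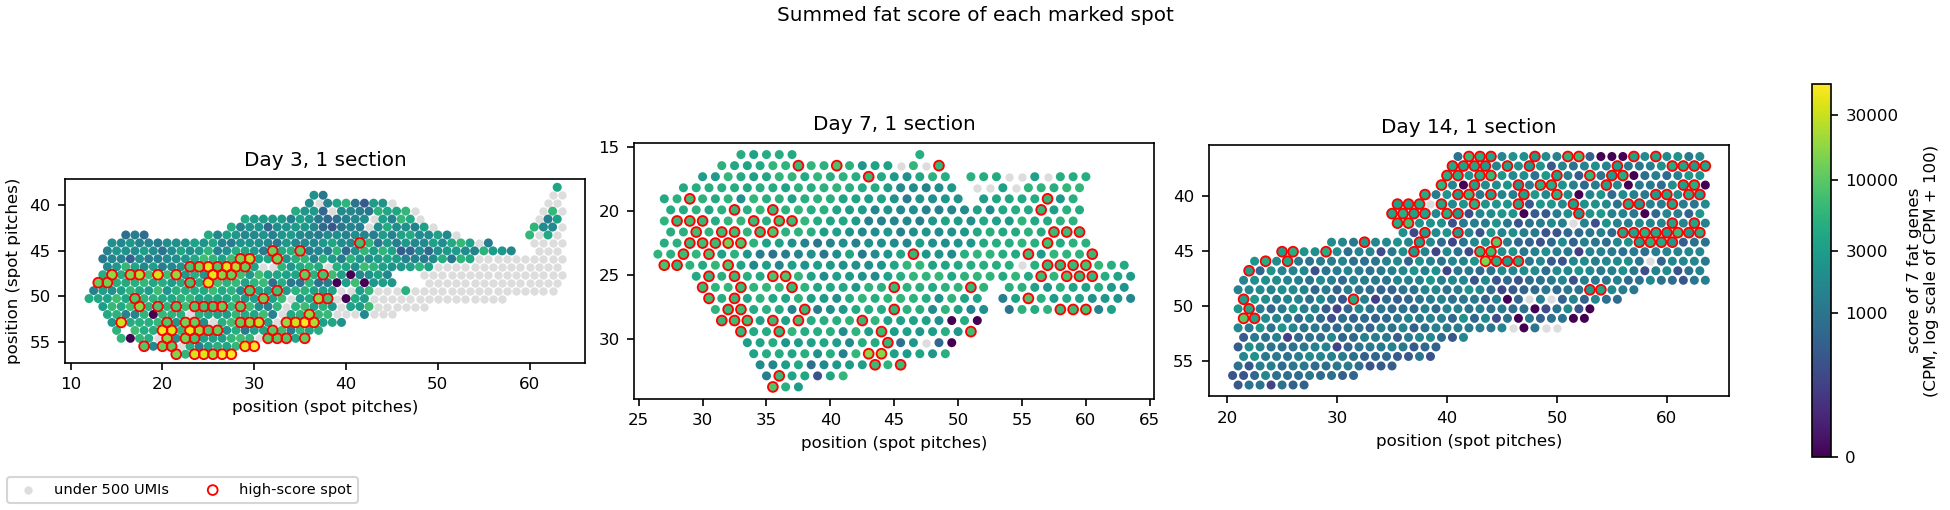
Position of the marked spots of each section, in steps between adjacent spot centres, coloured by the score (CPM, log colour scale of CPM + 100) with the high-score spots ringed in red and spots under 500 UMIs in grey. Rings cluster in yellow spots of up to 82886 CPM on Day 3, while the ringed spots of Day 7 (up to 16410 CPM) and Day 14 (up to 15228 CPM) differ less in colour from the rest.

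A threshold taken from 1 day cut the other sections very differently. The Day 3 threshold was reached by 16 of 539 spots on Day 7, or 2.97% (exact binomial 95% interval 1.71% to 4.78%), and by 4 of 689 spots on Day 14, or 0.581% (0.158% to 1.48%). In the other direction, 336 of 520 spots on Day 3 (64.6%) and 424 of 539 on Day 7 (78.7%) lay at or above the Day 14 threshold. Intervals here and below cover counting error only, not variation between animals, sections or slides.

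Which genes made up the score also changed with the day. The 6 genes other than Car3 gave 61.8%, 78.7% and 34.7% of the score UMIs of the high-score spots on the successive days. Car3, which encodes carbonic anhydrase 3 and is made by skeletal muscle as well as by fat, gave 38.2%, 21.3% and 65.3%. No UMI of the other 6 genes was held by 4 of 78 high-score spots on Day 3, 0 of 81 on Day 7 and as many as 25 of 103 (24.3%) on Day 14. In the Day 14 section the 6 genes had a median of 542 CPM in the high-score spots and 583 CPM in the other spots, so that most of both groups lay in the same range, although single high-score spots reached 13735 CPM and the highest other spot 1942 CPM.

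Adipoq encodes adiponectin, a hormone made by fat cells. It stood at 956 CPM (95% interval 827 to 1099, 196 UMIs) in the high-score spots of Day 3 and 73.6 CPM in the other spots, at 341 against 185 CPM on Day 7, and at 75.3 against 41.1 CPM on Day 14. Cfd, the complement protease adipsin, stood at 12746 against 1071 CPM, 4040 against 2211 CPM and 1025 against 440 CPM. Cidec and Plin1, which encode coat proteins of the single large lipid droplet, followed the same order of days, from 1317 to 275 to 105 CPM and from 205 to 145 to 26.9 CPM in the high-score spots. Car3 did not, with 10347, 1488 and 2778 CPM against 1150, 589 and 492 CPM in the other spots.

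**Figure D2:**
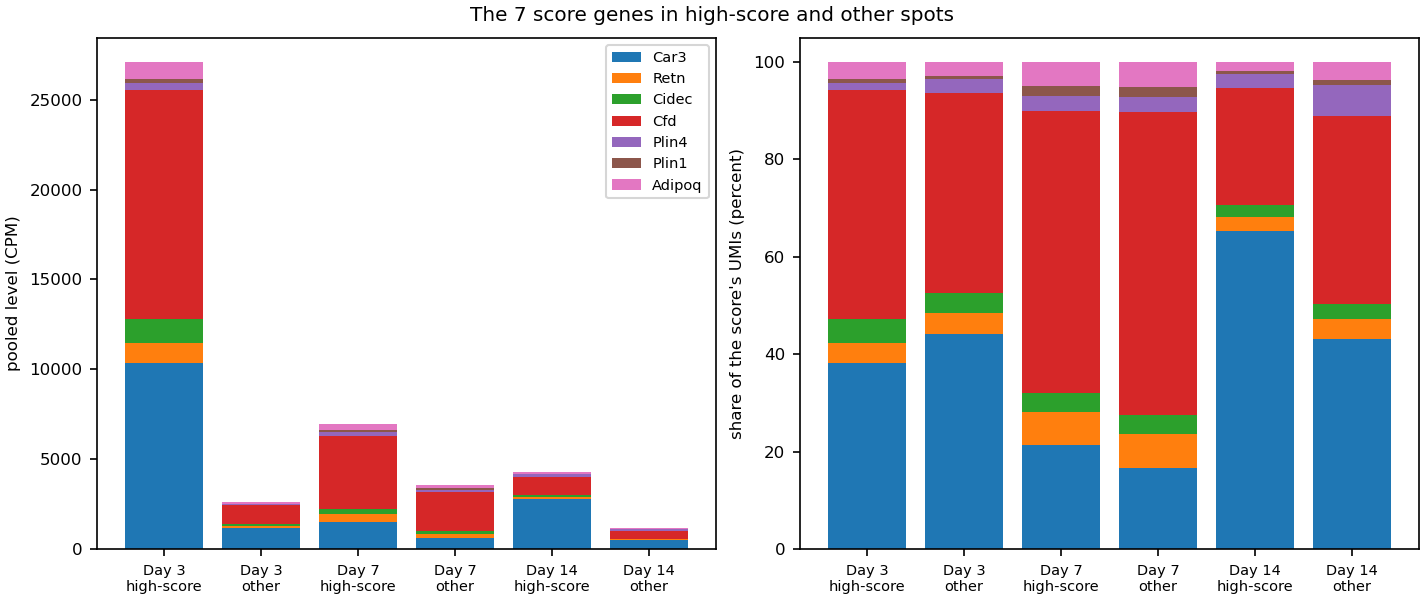
The 7 score genes in the high-score and the other spots of each section, stacked by gene, as pooled levels in CPM (left) and as percent of the score's UMIs (right). The high-score sums of 27096, 6982 and 4257 CPM stand beside 2602, 3554 and 1139 CPM in the other spots, and Car3 is the largest block of the high-score spots on Day 14.

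To see whether the score genes marked the same spots, each was read in spots chosen by the other 6, an alternative added after the data were seen. On Day 3 every gene stayed high, with log2 ratios of high-score over other spots from 2.43 for Plin4 to 3.67 for Adipoq. On Day 7 the ratios ran from 0.45 for Cfd to 0.81 for Plin4. On Day 14 Cidec (1.31) and Retn (1.28) were the highest, while the intervals of Adipoq (0.46, -0.25 to 1.11) and Plin1 (0.9997, -0.14 to 1.98) included 0. Across the spots of a section, which share a library, the 6 genes and Car3 correlated with Pearson's r of 0.09 over 520 spots, 0.15 over 539 and -0.11 over 689, and Car3 and the summed fast muscle genes with 0.48, 0.42 and 0.58. The 6 genes correlated with Fabp4 at 0.37, 0.51 and 0.23 and with summed lipogenesis genes at 0.34, 0.59 and 0.38. They also correlated with epidermis genes, at 0.13, 0.57 and 0.37, and with wound matrix genes, at 0.20, 0.33 and 0.43.

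In bulk values of spots, fewer fat cells and less RNA per fat cell cannot be told apart. The name fat holds on Day 3 and is weak on Day 7, and the Day 14 data go against it for many of the spots. Choosing the top 15% by the 6 genes without Car3 shared 57 of 78, 59 of 81 and 43 of 103 spots with the first choice. Some values from this second choice are given below.

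Adipoq and Fasn (fatty acid synthase) were among the fat genes that stood high together on Day 3, and the 250 bases before their transcription starts are shown to give the sequence context of a fat gene. The windows are chr16:23146286-23146535 on the plus strand and chr11:120824548-120824797 on the minus strand (GRCm38.p6, RefSeq), they overlap 0 annotated exons, and capitals mark CCAAT on either strand.

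Adipoq: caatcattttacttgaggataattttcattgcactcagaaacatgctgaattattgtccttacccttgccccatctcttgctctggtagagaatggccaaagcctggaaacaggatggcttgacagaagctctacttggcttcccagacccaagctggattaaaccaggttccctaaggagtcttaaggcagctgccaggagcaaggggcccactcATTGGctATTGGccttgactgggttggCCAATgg

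Fasn: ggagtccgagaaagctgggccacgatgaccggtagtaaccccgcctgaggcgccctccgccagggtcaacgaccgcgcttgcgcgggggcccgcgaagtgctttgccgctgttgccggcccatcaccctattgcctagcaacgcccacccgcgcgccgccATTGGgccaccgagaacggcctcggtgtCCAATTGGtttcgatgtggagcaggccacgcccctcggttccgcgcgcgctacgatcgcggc

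Each window held 3 matches to CCAAT or its reverse complement ATTGG, and in the Fasn window the last pair overlaps. A match occurs in 33.8% of 32851 such windows, so it is common. TTGCNNAA, searched on both strands, occurs in 9.56% of the windows and in neither of the windows shown. Of the 7 score genes 6 were in the table, and 2 of them held CCAAT and 2 TTGCNNAA. A match of letters is a description and says nothing about binding.

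On Day 3 many genes of triglyceride synthesis and fatty acid uptake stood higher in the high-score spots, 10 of 17 and 5 of 9 respectively, as did 2 of 7 lipid droplet genes. Of 5630 genes with at least 50 UMIs over both groups of spots, 302 (5.36%) were at least 2-fold higher with an interval that did not hold equality, and 1003 (17.8%) were at least 2-fold lower. A gene is called higher or lower only by this rule. The median gene had a log2 ratio of -0.37. With TMM factors the same section gave 476 higher and 725 lower genes and a median of -0.18, and with DESeq2 size factors 545, 634 and -0.11, so the counts depended on the scaling.

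Cdo1, which encodes cysteine dioxygenase, came first when genes were ranked by the bound of their interval nearer to equality. It had 90 UMIs in the high-score spots and 35 in the other spots, or 439 against 22.6 CPM, a log2 ratio of 4.28 (95% interval 3.70 to 4.89). Cyp2e1, a cytochrome P450 known from liver and fat, had 985 against 60.0 CPM (4.04, 3.68 to 4.41). Thrsp, a nuclear factor that promotes lipogenic gene expression, had 1243 against 99.4 CPM (3.64, 3.35 to 3.94). Pck1, which makes the glycerol backbone of triglyceride from pyruvate in fat, had 429 against 29.7 CPM (3.85). These 4 genes lay 12.5-fold to 19.4-fold above the other spots. In GRCm38, Cyp2e1 lies at chr7:140763739-140774987 on the plus strand and Thrsp at chr7:97412938-97417730 on the minus strand. Prkar2b (3.94), Nnat (3.70), Chpt1 (3.25), Lipe (3.01), Fabp4 (2.85) and Ifi27l2a (2.78) completed the 10 highest.

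Of 17 lipogenesis genes with enough UMIs on Day 3, 10 were higher and 1 was lower, with a median log2 ratio of 1.499 against -0.37 over all genes. Fasn stood at 1916 against 398 CPM (2.27, 2.08 to 2.45), and Scd1, the desaturase of newly made fatty acids, at 5632 against 2368 CPM (1.25, 1.15 to 1.35). Gpd1 (2.35), Agpat2 (2.36) and Acaca (2.36), which serve glycerol phosphate formation, acyl transfer and malonyl-CoA synthesis, had nearly equal ratios. Elovl6, a fatty acid elongase, was the 1 that was lower, at 268 against 814 CPM (-1.60, -2.02 to -1.21). Sebaceous glands also express Elovl6 and Scd1, and 6 of 7 sebaceous gland genes were lower in the same spots. The part of sebaceous glands in the ratios of Elovl6 and Scd1 was not tested.

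Fatty acid uptake and transport genes divided in the same way. Fabp4, the fatty acid binding protein of fat cells and capillaries, was at 6875 against 953 CPM (2.85, 2.74 to 2.96), and Lpl, which frees fatty acids from lipoproteins, at 1560 against 327 CPM (2.26). Cd36 (1.69), Acsl1 (2.07) and Slc27a1 (1.55) were also higher, so that 5 of 9 genes were higher and 2 were lower. The lower ones were Fabp5, the keratinocyte form, at 619 against 1864 CPM (-1.59), and Angptl4, an inhibitor of lipoprotein lipase (-1.21). Among lipid droplet and lipolysis genes the triglyceride lipase Pnpla2 (1131 against 184 CPM, 2.62) and the hormone-sensitive lipase Lipe (468 against 58.1 CPM, 3.01) were higher. Hilpda was lower with 1 UMI against 60 (-2.99, -8.32 to -0.46), and the other 4 of the 7 measured genes, among them Plin2 at 273 against 301 CPM, lay within 2-fold.

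Secreted factors, regulators and the insulin response gave fewer calls. Hp, haptoglobin, was higher at 1000 against 161 CPM (2.64, 2.36 to 2.91), as were Rbp4, a retinol carrier (2.84), and Orm1 (2.11), which made 3 of 7 secreted factors. Of the 7, 2 were lower, among them Apln (-1.63). Pparg, the master regulator of fat cell formation, was higher on 16 against 36 UMIs, or 78.0 against 23.2 CPM (1.75, 0.80 to 2.63), and so was Adig (2.42). Tle3 was lower (-1.32), and the other 6 of 9 regulators lay within 2-fold. Ghr, the growth hormone receptor (2.17), Slc2a4, the insulin-responsive glucose transporter (1.49), and Cavin2 (1.31) were higher among 9 insulin and caveola genes. With the score without Car3, Slc2a4, which muscle also makes, fell to a log2 ratio of 0.15.

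**Figure D3:**
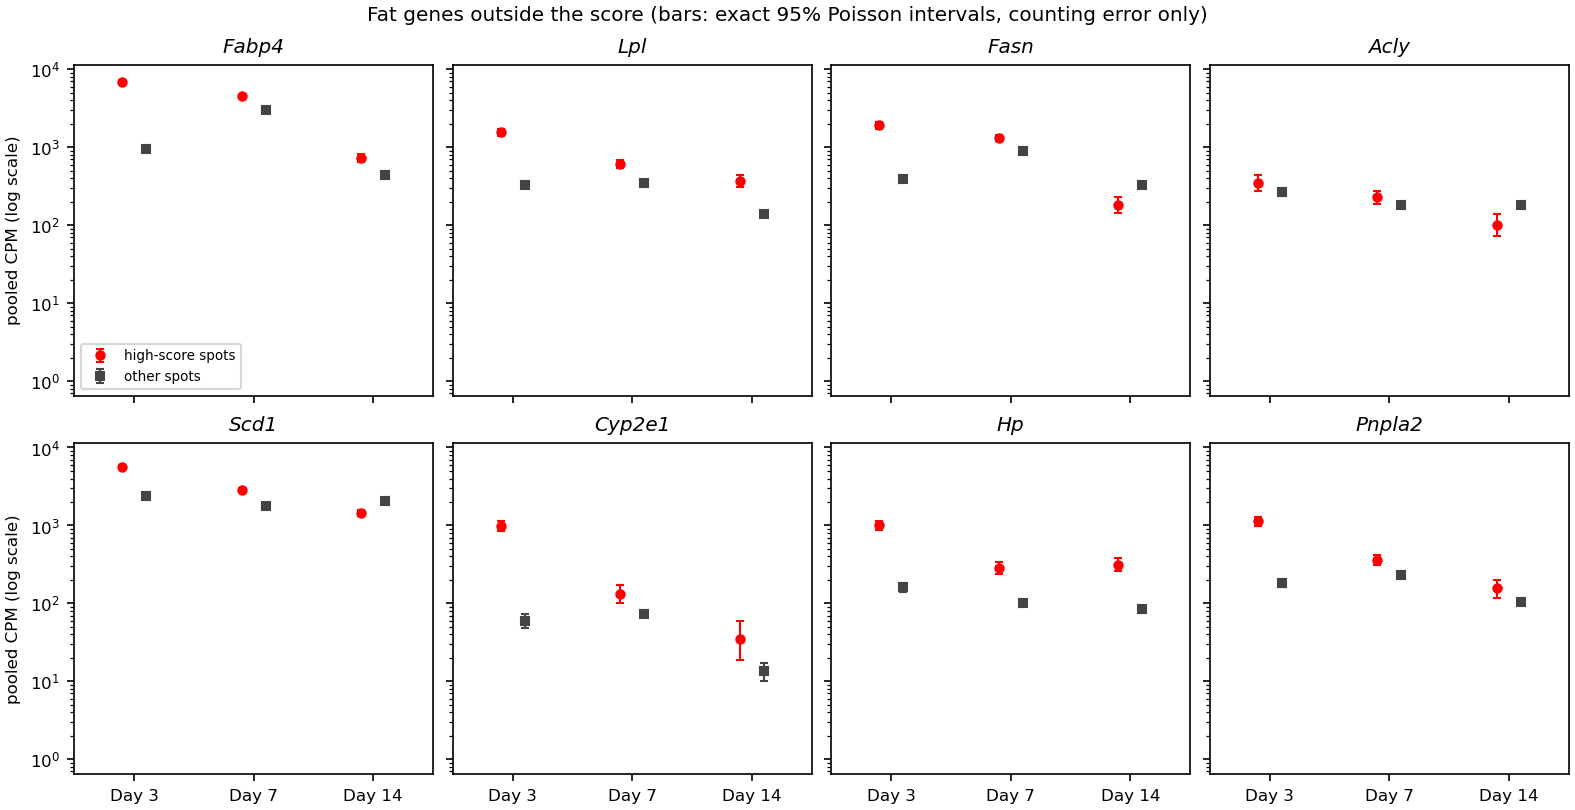
Pooled level (CPM, log scale) of 8 genes outside the score, Fabp4, Lpl, Fasn, Acly, Scd1, Cyp2e1, Hp and Pnpla2, in the high-score spots (red circles) and the other spots (grey squares) of each section, with exact 95% Poisson intervals for counting error only. Fabp4 stands at 6875 against 953 CPM on Day 3 and 4510 against 3057 CPM on Day 7, and Hp stands above the grey points on all 3 days, at 1000 against 161, 289 against 102 and 315 against 84.5 CPM.

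The other cell types moved with this contrast. On Day 3 all 10 epidermis genes were lower in the high-score spots, with summed levels of 2155 against 10681 CPM (-2.31), and 7 of 9 neutrophil genes were lower (883 against 2508 CPM summed). All but 1 of 11 measured acute inflammation genes were lower, among them Cxcl5 at 14.6 against 234 CPM (-4.00, from 3 UMIs) and Ccl2, while C3, which fat also makes, stood at 1000 against 547 CPM (0.87). Fat progenitor genes were lower for 5 of 9, including Pdgfra (-1.28) and Dpp4 (1 UMI, -2.81). Fast muscle genes summed to 65308 against 33832 CPM (0.95) and 4 of 10 were higher, with either scaling factor 9 of 10. With the score without Car3 none of the 10 was, and the sum was 46918 against 36225 CPM (0.37). Without Car3 the fat gene ratios were 2.85 for Fabp4, 2.21 for Fasn and 3.54 for Thrsp. The part of muscle in the fat gene ratios was not tested under either choice. The score without Car3 also left 4 of 11 acute inflammation and 1 of 9 neutrophil genes lower, in place of 10 and 7, and C3 was then higher (1.08). Over all 5630 genes it called 611 lower and 208 higher, in place of 1003 and 302.

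Among the lowest genes of Day 3, Sfn, a keratinocyte gene, stood at 73.1 against 737 CPM (-3.33), and Timp1, an inhibitor of matrix proteases, at 63.4 against 612 CPM (-3.27). Rarres1 rested on 1 UMI against 242 (-5.00, -10.31 to -2.51) and Cxcl5 on 3 UMIs.

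On Day 7 nearly all fat genes lay within 2-fold of the other marked spots. Of 9415 genes 77 (0.818%) were higher and 162 (1.72%) lower, with a median log2 ratio of -0.05. None of the 18 lipogenesis, 10 uptake and 11 lipid droplet genes measured was called, although their medians of 0.44, 0.47 and 0.47 all lay above the median of all genes. Fabp4 stood at 4510 against 3057 CPM (0.56, 0.49 to 0.63), Fasn at 1309 against 885 CPM (0.56, 0.44 to 0.69) and Lpl at 614 against 350 CPM (0.81, 0.61 to 0.997). Fast muscle genes had 0 of 10 called, a median of 0.53 and a sum of 72230 against 50539 CPM (0.52, 0.50 to 0.53; 0.39 without Car3), and their part in the fat gene values was not tested. In the plot of fat gene levels most red points of Day 7 lie just above the grey ones.

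Hp was the gene with the clearest difference on Day 7, at 289 against 102 CPM (1.504, 1.20 to 1.79, 127 UMIs). Hp lies at chr8:109575128-109579172 on the minus strand (GRCm38). It was the only measured secreted factor that was called, and Trarg1, a partner of the glucose transporter, was the only insulin response gene (1.13, 0.44 to 1.77). Mir99ahg (1.64), Tuft1 (1.67), Rev3l (1.57), Col6a6 (1.40) and Bbx (1.45) each rested on 16 to 40 UMIs in the high-score spots. Lars2 (0.97) and Gm42418 (0.77) ranked among the 10 highest by their narrow intervals but stayed within 2-fold, and both are genes whose reads can come from ribosomal RNA.

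The lowest genes of Day 7 were of other kinds. Isg15, an interferon-induced gene, had 1 UMI against 115 (-3.66, -8.98 to -1.16). Cul9 and Gstp1 had 0 UMIs against 69 and 67, which makes them at least 2.53-fold and 2.46-fold lower when 3 UMIs are allowed for a count of 0. The ribosomal protein genes Rpl35 (-1.52) and Rpl41 (-1.14) were lower too. Tagln, a contractile protein of smooth muscle and myofibroblasts, was lower among 11 wound matrix genes (61.4 against 145 CPM, -1.24).

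Score genes were present across the marked spots of Day 7. Adipoq had a UMI in 76.5% of the high-score spots and 68.8% of the other spots, and Cfd in 100% and 96.7%, at median depths of 4884 and 7531 UMIs. In the 81 spots richest in epidermis genes, the 6 score genes other than Car3 still stood at 3890 CPM, against 5494 CPM in the high-score spots. On Day 3, by contrast, the epidermis-rich spots held 1480 CPM and the high-score spots 16749 CPM. Whether RNA spread between spots on the slide was not tested.

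On Day 14 the high-score spots were led by blood and muscle genes rather than by genes of fat. Of 10022 genes 266 (2.65%) were higher and 1201 (12.0%) lower, with a median log2 ratio of -0.43, and with TMM factors 532 were higher and 498 lower at a median of -0.11 (565 and 466 with DESeq2 size factors). The 10 highest genes were the haemoglobin genes Hba-a1 (1778 against 330 CPM, 2.43), Hbb-bs (2450 against 536 CPM, 2.19) and Hbb-bt (2.17), and 7 others, most of them genes of striated muscle. Among these Trdn, which holds the calcium release complex of the sarcoplasmic reticulum, stood at 842 against 167 CPM (2.33), Myh1, a fast myosin, at 2246 against 662 CPM (1.76) and Tpm2 at 4572 against 1401 CPM (1.71). Prr33 (2.53), Ampd1 (2.04), Capn3 (2.45) and Nrap (1.96) were the others. In spots chosen without Car3 the ratios of Trdn (-0.60), Capn3 (-0.44) and Prr33 (-0.078) turned sign. The 5 lowest were Flg (29.6 against 203 CPM, -2.78), Calm4 (-2.24), Lce1a1 (-2.47), Clca3a2 (-3.03) and Defb8 (-3.06), of which Flg and Lce1a1 encode proteins of the cornified epidermis.

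Fat genes gave a divided picture on Day 14. Of 17 lipogenesis genes 2 were higher and 2 lower, with a median of -0.51 against -0.43 over all genes. Fasn stood at 183 against 331 CPM (-0.85, -1.23 to -0.50) and Scd1 at 1436 against 2068 CPM (-0.53), both within 2-fold. Lpin1 (1.03) and the glucose-sensing factor Mlxipl (1.299) were higher, Dgat2 (-1.002) and Elovl6 (-1.16) lower, and with either scaling factor the counts were 3 higher and 0 lower. Lpl (1.41, 1.13 to 1.68), Cd36 (1.09) and Vldlr (1.49), which muscle uses too, were the higher uptake genes among 10, and Fabp4 stood at 732 against 447 CPM (0.71, 0.52 to 0.89). None of 7 lipid droplet genes was called, and the sign of their sum depended on the scaling (-0.16, or 0.17 with DESeq2 size factors).

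Hp was again higher, at 315 against 84.5 CPM (1.90, 1.58 to 2.20). It was the only measured gene of the fat lists outside the score that was called higher on all 3 days, with 2.64, 1.504 and 1.90. With the score without Car3 the ratios were 2.71, 1.36 and 1.97.

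Thermogenic fat genes were read from a list of 18. On Day 14, 3 of 8 measured members were higher, Cox8b (1022 against 343 CPM, 1.57), Cox7a1 (1.57) and Fabp3 (1.15), which muscle and heart also make, and Cidea, which sebaceous glands also make, was lower (-1.80). Ucp1, the uncoupling protein that defines heat-producing fat, had 0 UMIs in the section of Day 3, 58 UMIs in the high-score spots and 372 in the other spots of Day 7 (132 against 93.0 CPM, 0.50, 0.08 to 0.91), and 1 and 5 UMIs on Day 14. Chosen without Car3, none of the 8 was called on Day 14, when 70 of all 10022 genes were higher and 137 lower. Cox8b then had a log2 ratio of -0.13.

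**Figure D4:**
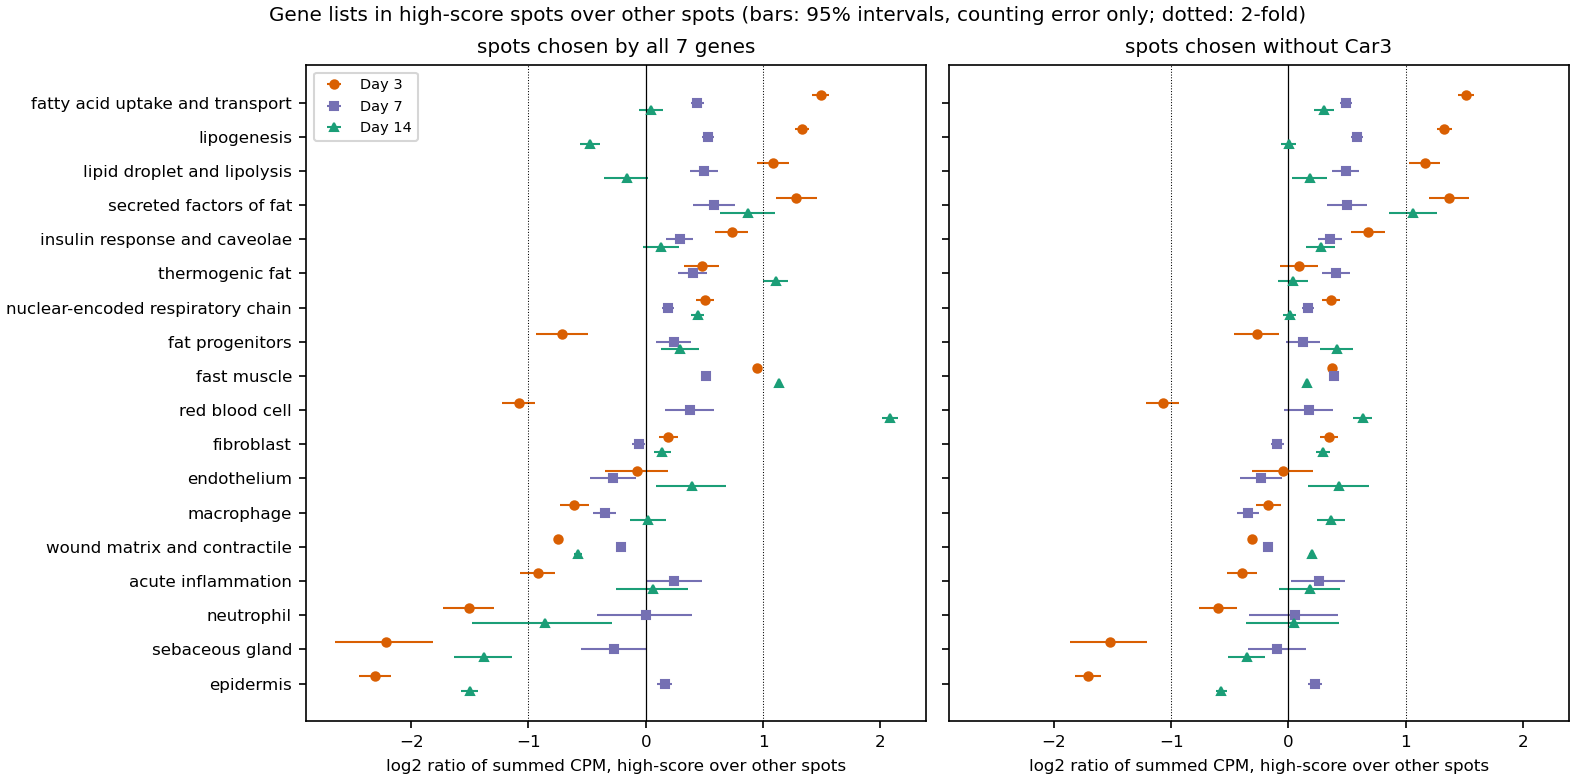
Summed level of each gene list in high-score over other spots, as a log2 ratio with its 95% interval for counting error, in the 3 sections, for spots chosen by all 7 genes (left) and without Car3 (right); dotted lines mark 2-fold. The lipid lists lie above 1 on Day 3 under both choices, and the fast muscle and red blood cell lists of Day 14 drop from 1.14 and 2.08 to 0.16 and 0.63 without Car3.

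Among the other fat lists of Day 14, 0 of 10 regulators were called, Slc2a4 (1.35) was the 1 of 11 insulin and caveola genes that was higher, and without Car3 its ratio was 0.10. Of 6 secreted factors Hp was higher and Orm1 lower (2 UMIs, -2.19, -5.25 to -0.30), so that the list's median was -0.95 and its sum 0.87. No member of the 16 nuclear-encoded respiratory chain genes was called on Day 7 or Day 14, while Ndufb8 (1.096) and Etfb (1.03) were higher on Day 3.

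Most lists of connective tissue, immune and vessel cells held few calls. Over all genes 17.8%, 1.72% and 12.0% were lower on Days 3, 7 and 14, and 5.36%, 0.818% and 2.65% were higher. Counts near these shares say nothing particular about a list. Of 10 fibroblast genes 1 was lower on Day 3 and 0 on the later days. Macrophage genes were lower for 1 of 10, 0 of 9 and 0 of 8 on the successive days, and genes of lipid-laden macrophages for 4, 0 and 1 of 9. Endothelial genes were lower for 2 of 8 on Day 3, uncalled for all 10 on Day 7, and higher for 1 of 8 on Day 14, and the sign of their Day 3 sum (-0.07) turned with the scaling (0.19 with DESeq2 size factors). Of 11 wound matrix genes 2, 1 and 1 were lower, and of 13 basement membrane genes 1, 0 and 0. Fat progenitor genes had 0 calls among 10 on Day 7 and 9 on Day 14. The 9 candidate genes of the study, whose counts are no independent evidence since the study chose them, gave 2 lower on Day 3, with a sum of 3306 against 3354 CPM whose sign turned with the scaling, and 1 higher on each later day. Schwann cell genes were lower for 2 of 3, 1 of 6 and 2 of 6, and 0 pericyte and mast cell genes were called. Chosen without Car3, the spots gave other counts for several of these lists. Over all genes this choice called 208 higher and 611 lower of 5630 on Day 3. It called 75 and 144 of 9415 on Day 7, and 70 and 137 of 10022 on Day 14. On Day 3, 2 of 9 fat progenitor genes, 1 of 9 lipid-laden macrophage genes and 0 Schwann cell genes were lower, 2 fibroblast genes were higher, and the candidate genes had 2 higher and 1 lower, with a sum of 4071 against 3250 CPM (0.32). Of the mast cell genes, 1 of 1 was higher on Day 7 and 1 of 5 on Day 14, when 1 of 10 fibroblast and 1 of 8 macrophage genes were higher too.

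Muscle and blood moved with the Day 14 score. Summed fast muscle genes stood at 118738 against 53864 CPM (1.14), 9 of 10 were higher, and single high-score spots ran from 28826 to 244090 CPM with a median of 134883, against a median of 54917 in the other spots. Of the slow muscle genes 0 of 6 were called. The 4 haemoglobin genes summed to 6508 against 1537 CPM (2.08). All 10 epidermis genes, 5 of 8 sebaceous and 4 of 9 growing hair genes were lower. In spots chosen without Car3 the fast muscle sum was 65149 against 58372 CPM (0.16), and red blood cell genes stood at 2836 against 1830 CPM (0.63). Then 0 genes of the fast muscle, slow muscle, red blood cell, epidermis and growing hair lists were called, with 1 of 8 sebaceous genes lower. Over all 10022 genes this choice called only 70 higher and 137 lower, so few calls in short lists lie near that share. Lipogenesis genes then stood at 4332 against 4319 CPM (0.00), and 1 of 10 uptake genes, Lpl (1.19), was higher. Their part in the Day 14 ratios was not tested.

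**Figure D5:**
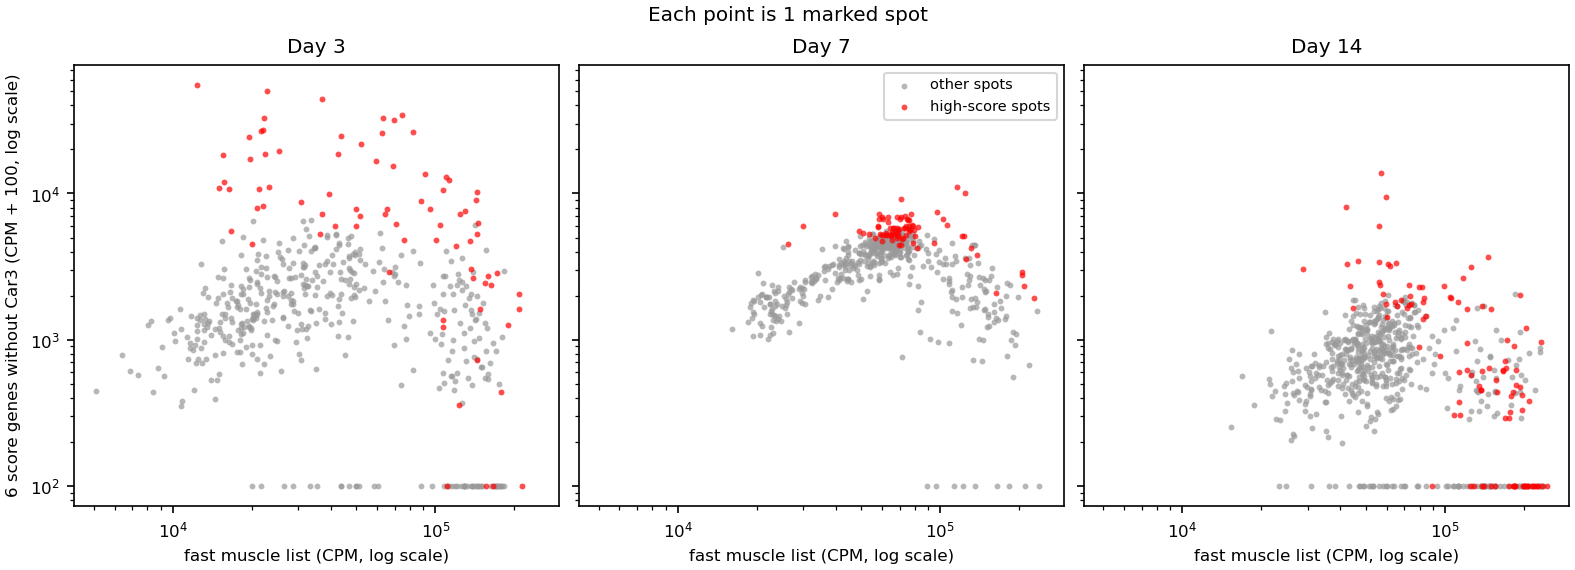
Each high-score and other spot of the 3 sections by its summed fast muscle level and its level of the 6 score genes other than Car3, on log axes in CPM, with 100 CPM added to the 6 genes so that spots at 0 sit on the lowest line. The high-score spots of Day 14 have medians of 134883 CPM for muscle and 542 CPM for the 6 genes, against 70393 and 7723 CPM on Day 3.

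Members of a section differed among themselves. Ranked by score and cut into 4 groups, the high-score spots of Day 3 went from 13604 to 1256 CPM for Fabp4, while fast muscle genes went from 38922 to 101850 CPM. The 6 genes went from 31199 to 3549 CPM, which the ranking fixed in part, since they belong to the score. On Day 7 Fabp4 was nearly level over the 4 groups, between 4405 and 4722 CPM. On Day 14 red blood cell genes were at 15510 CPM in the top group and 2579 CPM in the lowest. The 6 genes were at 2627 and 988 CPM, again in part by the ranking itself.

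The patches of adjacent spots showed the same difference. Counting adjacent high-score spots as 1 patch, the 3 sections had 30, 28 and 30 patches, with at most 13, 15 and 16 spots. A patch of 5 spots on Day 3 had a score of 60264 CPM and Fabp4 at 20367 CPM, while its 13-spot patch had 22047 CPM. The 16-spot patch of Day 14 held Car3 at 4172 CPM, the other 6 genes at 496 CPM, fast muscle genes at 170778 CPM and red blood cell genes at 21525 CPM. A patch of 7 spots in the same section held the 6 genes at 5856 CPM, Car3 at 1292 CPM, fast muscle genes at 56192 CPM and lipogenesis genes at 8396 CPM. It held only 4 UMIs of Adipoq, and the 16-spot patch 3. Its epidermis and growing hair genes stood at 7234 and 2670 CPM, against 1487 and 701 CPM in the 16-spot patch. The high-score spots of Day 14 thus included patches rich in muscle genes and patches with more of the 6 genes, epidermis and hair genes.

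High-score spots lay nearer to muscle-rich spots than the other spots did on every day. The median distance to the nearest of the 15% of spots richest in fast muscle genes, counted in steps between adjacent spot centres and 0 where a spot was itself among them, was 1, 2 and 1 on Days 3, 7 and 14, against 3.46, 4 and 6.24 for the other spots. High-score spots that were themselves muscle-rich numbered 21 of 78 (26.9%), 12 of 81 (14.8%) and 45 of 103 (43.7%). Chosen without Car3 they numbered 7, 3 and 4, and the Day 14 distance was 4.36 against 6.08. To the nearest epidermis-rich spot the distances were 3.61 against 2, 2.65 against 2.65 and 5.29 against 2.65, and without Car3 they were 3 against 2, 2 against 2.65 and 3.46 against 2.65, so the Day 7 high-score spots then lay nearer to epidermis than the others. At the border of the marked area lay 21.8%, 23.5% and 27.2% of the high-score spots and 18.8%, 19.0% and 15.5% of the other spots. Without Car3 these shares were 19.2%, 18.5% and 17.5% against 19.2%, 19.9% and 17.2%.

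Between days the high-score spots were compared with each other, and for many genes the same ratio in the other spots of the 2 sections is given beside. The comparisons share sections, so the ratios of Day 14 over Day 3 follow from the other pair. Day 7 over Day 3 gave 353 higher (17.2%) and 203 lower genes (9.89%) of 2052, at a median log2 ratio of 0.13. Scaling turned this split, with 270 higher and 280 lower under TMM factors and 249 and 303 under DESeq2 size factors.

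Wound matrix genes were higher in the high-score spots of Day 7 than in those of Day 3. Postn, periostin, went from 29 to 1148 UMIs, or 141 to 2608 CPM (4.21, 3.68 to 4.79), with 3.91 in the other spots. Tnc, tenascin C, went from 43.9 to 1050 CPM (4.58, other spots 2.91), and Col12a1 from 29.3 to 754 CPM (4.69, other spots 3.39). In all 7 of 10 wound matrix genes were higher. Actc1, an embryonic muscle actin, had a log2 ratio of 5.85 and of 5.75 in the other spots, and Cdh11, a cadherin of fibroblasts, went from 0 to 121 UMIs, at least 18.8-fold, against a log2 ratio of 1.83 in the other spots. Prss35 went from 0 to 82 UMIs, at least 12.7-fold, and from 2 to 1110 UMIs in the other spots (7.75). Bc1 (5.65), Tnn (5.68), Col7a1 (4.31) and Mest (5.57) were the other genes among the 10 highest. In the other spots these had 3.31, 5.98, 3.49 and 1.90.

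Some fat genes were lower in the high-score spots of Day 7. From Day 3 to Day 7 lipogenesis genes were lower for 4 of 17, Thrsp (-2.41), Pck1 (-2.07), Lpin1 (-1.57) and Gpam (-1.06), while in the other spots Thrsp and Pck1 had log2 ratios of 0.44 and 1.53. Cyp2e1 went from 985 to 134 CPM (-2.88, -3.32 to -2.45), with 0.31 in the other spots. Pnpla2 (-1.65, other spots 0.32), Lipe (-1.04, other spots 1.24) and Adig (-1.37, other spots 0.56) were lower. Fasn (-0.55) and Fabp4 (-0.61) stayed within 2-fold in the high-score spots, with 1.15 and 1.68 in the other spots. For Thrsp, Pck1, Cyp2e1, Pnpla2, Lipe and Adig the ratio was negative in the high-score spots and positive in the other spots. The score genes, by which the spots were chosen, had -1.96 in the high-score spots and 0.45 in the other spots. Opposite signs in genes that go with the score thus repeat in part what the choice fixed. The difference between the 2 ratios was not tested.

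Other genes that were lower on Day 7 than on Day 3 included the neutrophil alarm genes S100a8 (-4.13) and S100a9 (-3.57), the acute phase gene Saa3 (-3.47) and the chemokine Ccl8 (-2.83), each of which also had a negative ratio in the other spots, from -6.18 for Saa3 to -2.86 for Ccl8. Trf, transferrin, had -2.93 against -0.71 in the other spots, and the fast myosin Myh2 -4.46 against -3.36. Serpina3n (-3.29) and the mitochondrial genes mt-Atp8 (-3.66) and mt-Nd4l (-2.87) completed the 10 lowest.

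Day 14 over Day 7 gave 152 higher (5.80%) and 363 lower genes (13.9%) of 2620, at a median of -0.16, with 223 and 257 under TMM factors. Without Car3 the split turned, with 270 higher, 220 lower and a median of 0.05. Of 16 lipogenesis genes 10 were lower and 0 higher, with a median of -1.40. Fasn went from 1309 to 183 CPM (-2.84, -3.22 to -2.47; other spots -1.42), Dgat2, which adds the last acyl chain of triglyceride, had -2.59 (other spots -0.72), and Agpat2 -2.25 (other spots -2.10). Fabp4 went from 4510 to 732 CPM (-2.62), as it did in the other spots (-2.77). Ucp1 went from 58 UMIs to 1 (-5.61, -10.94 to -3.08; other spots -6.30). Wound matrix genes were lower for 9 of 10, among them Postn (-3.03) and Tnc (-3.91). Mest (-4.84, from 3 UMIs), Tnn (-4.54), Col12a1 (-3.13), Krt16 (-3.65) and Aplnr (-4.34, from 2 UMIs) were the other genes among the 10 lowest.

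Hair and blood genes were higher on Day 14. Krt71, Krt25 and Krt27, keratins of the inner root sheath of growing hair, had 251, 210 and 141 UMIs in the high-score spots of Day 14 and 0 on Day 7, at least 99.03-fold, 82.9-fold and 55.6-fold higher, with log2 ratios of 12.61, 12.04 and 11.76 in the other spots, where the Day 7 counts were low too. Prr9, Tchh, S100a3, Krt35 and Gm49425 were also among the 10 highest, with 50 to 127 UMIs on Day 14 and at most 1 on Day 7. Hba-a1 went from 68.2 to 1778 CPM (4.705, other spots 2.33) and Hbb-bs from 161 to 2450 CPM (3.92, other spots 1.91). No member of the lipogenesis, uptake or lipid droplet list was higher. Of 6 thermogenic fat genes 2 were higher, Cox7a1 (1.57, other spots 0.35) and Cox8b (1.17, other spots 0.08), and so were Cebpd among 7 adipogenic regulators (1.40, other spots 0.96) and Pi16 among 5 fat progenitor genes (1.02, other spots 1.06). Fast muscle genes were higher for 2 of 10.

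Day 14 over Day 3 gave 154 higher (9.29%) and 185 lower genes (11.2%) of 1657, at a median of -0.04. Without Car3 the split turned, with 503 higher, 250 lower and a median of 0.17. The 10 highest were the hair genes just named, Bc1 (5.82) and Actc1 (3.79). Saa3 went from 67 UMIs to 0, at least 40.5-fold lower (other spots -7.79). S100a8 (-5.47, other spots -5.20) and S100a9 (-4.79, other spots -5.82) were lower. So were Trf (-4.61, other spots -1.94) and Ifi27l2a (-4.63, other spots -1.84). Thrsp went from 255 to 12 UMIs (1243 to 32.3 CPM, -5.27, -6.24 to -4.44; other spots -3.76), Cyp2e1 from 985 to 35.0 CPM (-4.82; other spots -2.16) and Pck1 from 429 to 18.8 CPM (-4.51; other spots -1.55). Fabp4 had -3.23 against -1.09 in the other spots and Fasn -3.39 against -0.27. Lipogenesis genes were lower for 10 of 14, uptake genes for 5 of 7 and lipid droplet genes for 5 of 5, and 0 were higher in any of the 3 lists. The summed lipogenesis level had a log2 ratio of -2.03 in the high-score spots and -0.22 in the other spots. Since the Day 14 spots were chosen at a threshold of 2653 CPM and the Day 3 spots at 7769 CPM, ratios of fat genes between these groups repeat in part what the choice fixed. The same holds for the other pairs of days, with the Day 7 threshold at 5993 CPM.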

How the data were processed

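Space Ranger 1.3.0 with genome build mm10, as named in the submitters' processing notes, turned reads into UMI counts. The deposited values are raw counts, not normalized, for 32285 genes and 4992 spots in each of 3 sections, 1 per day, and the authors deposited them without a filter on spots. All 4992 barcodes recur on every slide, being those of the fixed grid. Spots were taken as marked in the position lists with at least 500 UMIs and ranked by the score. UMIs were pooled over spots and scaled to 1000000 (CPM). Ratios have exact conditional binomial 95% intervals, levels exact Poisson and shares exact Clopper-Pearson intervals. A gene needed 50 UMIs over both groups and was called higher or lower at 2-fold with an interval off equality. Where a group had 0 UMIs, a floor of 3 counts over the group gave the bound. With 1 section per day no p-value was computed.

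Named genes were the 10 highest and 5 lowest ratios in each section and the 10 highest and 10 lowest from day to day, in order of that bound of the interval which lay closer to equality, without the score genes; a few of these are not reported here. From 27 further gene lists up to 6 members with the most UMIs and those past 2-fold could be named; 1 listed gene was not found in the files. The members and lists were chosen with earlier results of these data known. The 14 alternatives changed the share of spots, the threshold, the score genes, the minimums, the scaling and the spots left out. Python 3.11.15 with numpy 2.4.6, scipy 1.17.1, pandas 2.3.3 and matplotlib 3.10.9 was used, with TMM factors from edgeR 4.0.16 and size factors from DESeq2 1.42.0 in R 4.3.3. Gene positions are from GRCm38 and upstream windows from RefSeq, GRCm38.p6. The scripts were tested on simulated counts. Doublet calling was not run, since a spot can hold several cells.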

Additional observations from a re-analysis of the deposited data

Results flagged for a closer look

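Spots outside the marked area carried the score genes too. The highest unmarked spot with at least 500 UMIs gave 10.2%, 6.57% and 8.04% of its UMIs to the 7 genes on Days 3, 7 and 14, against 8.29%, 1.64% and 1.52% for the highest marked spot. The top 15% of the unmarked spots, 101, 318 and 267 spots, had pooled scores of 42142, 30976 and 14290 CPM. On Day 7 they held Fabp4 at 16311 CPM, and the unmarked spots held 1911 UMIs of Ucp1 with up to 172 in 1 spot. The paper shows the spots of its images as selected for a region of interest, so tissue may lie outside the mark. What lay under these spots was not tested.

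The red blood cell genes in high-score over other spots had a log2 ratio of -1.08, 0.37 and 2.08 on Days 3, 7 and 14. Each day is 1 section, so this difference was not tested.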

How the results depend on the processing

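No paired analysis was possible because each day has 1 section and no replicate number is shared; for the same reason no section could be left out. Counting intervals do not cover differences between animals, and genes under 50 UMIs were not called at this depth. Of the gene counts, 109 stayed within 1.5 times under the alternatives and 59 moved. Of the distances to muscle-rich spots 21 stayed and 3 moved. Of the list medians 1609 stayed, 118 moved and 8 turned sign, and of the named genes 832, 159 and 8. A further 36 values could not be given. The cause of a change was not tested unless the alternative itself leaves fewer genes or spots. A spot minimum of 1000, leaving out mitochondrial genes and leaving out sebaceous-rich spots moved no count.

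With 1 threshold for all sections, which left 78, 16 and 4 spots, the log2 ratios on Day 14 turned for Ampd1 (-0.68), Hba-a1 (-0.33), Hbb-bs (-2.28) and Hbb-bt (-0.79), and on Day 7 for Tuft1 (-0.13). Without Car3 they turned on Day 14 for Capn3 (-0.44), Prr33 (-0.078) and Trdn (-0.60). The Day 14 distance to muscle-rich spots was 3.68 with 1 threshold, 4.36 without Car3 and 3 without muscle-rich spots. List medians turned for adipogenic regulators, Day 14 over Day 3, without Car3 (0.19); for fat progenitors, Day 7 over Day 3, with 1 threshold (-0.77), at least 2 adjacent spots (-0.71) and the top 10% (-0.35); and with 1 threshold for red blood cell genes on Day 14 (-0.56) and Day 14 over Day 3 (-0.31) and secreted factors, Day 14 over Day 3 (0.17) and over Day 7 (1.35).

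Genes higher on Day 14 than Day 3 numbered 24 with 1 threshold, 80 with at least 2 adjacent spots, 451 with a gene minimum of 20, 696 with none, 503 without Car3 and 279 with the top 20%, and lower ones 66, 88, 414 and 701 under the first 4. Genes higher on Day 14 than Day 7 numbered 1, 89, 319, 529, 270 without Car3 and 94 with the top 10%, and lower ones 17, 174, 742 and 985, 220 without Car3, 230 with the top 10% and 220 without muscle-rich spots. Genes higher on Day 7 than Day 3 numbered 61, 148, 801, 1040, 199 with the top 10% and 601 with the top 20%, and lower ones 104, 108, 415 and 598. Within Day 14, genes higher numbered 157 with 1 threshold, 565 with DESeq2 size factors, 532 with TMM factors, 70 without Car3 and 166 without muscle-rich spots, and lower ones 29, 466, 498, 137 and 400, with 2274 by the mean of spot CPM. Within Day 3, higher ones numbered 545 with DESeq2 size factors, 476 with TMM factors, 474 with a minimum of 20 and 656 with none, and lower ones 634 with DESeq2 size factors and 611 without Car3. Within Day 7, higher ones numbered 193 with 1 threshold, 138 with at least 2 adjacent spots, 124 with a minimum of 20, 208 by the mean of spot CPM, 168 with no minimum, 116 with the top 10% and 47 with the top 20%, and lower ones 99 with 1 threshold and 608 by the mean of spot CPM.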
